A study of Mus musculus with 12 samples.

Results

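Core genes of macrophages and other myeloid cells, 41 in number, were examined in mouse lung endothelial cells (MLECs) in which the transcription factors Sp1 and Sp3 had been targeted. The genes were chosen by name, with earlier results of these data known. They comprise markers of macrophages, the growth factors that keep them alive and their receptors, the lineage factor Spi1, and leukocyte surface and signalling proteins. Subunits of the NADPH oxidase, actin regulators, lectins and paired receptors, and genes of apoptotic cell uptake were included too. All 41 were among the 28689 genes of the deposited FPKM table (fragments scaled by gene length and by library size, a level that can be compared between genes), and 39 reached 1 FPKM in 6 or more of the 12 libraries, which the test required. Of the 41, 29 are known mostly from blood-derived cells, whereas 12 are also made by endothelial, epithelial or connective tissue cells of the lung. Lyz2 was counted with the 29, although alveolar type 2 epithelial cells make it too.

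Mature macrophages depend on the receptor of colony stimulating factor 1, which binds either of its ligands, CSF1 or IL34, both often supplied by neighbouring tissue cells. The lineage factor PU.1, encoded by Spi1, binds a purine-rich core motif in many myeloid promoters. Lung holds alveolar macrophages in the air spaces and interstitial macrophages near vessels and airways, and a cell preparation selected with antibody-coated beads can carry both along.

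MLECs of adult littermates were compared, with 6 libraries in each group. The dKO mice carried floxed alleles of Sp1 and Sp3 and the VE-cadherin-CreERT2 transgene, whose promoter is active in endothelial cells, so that the alleles were to be deleted there after tamoxifen. The CTR mice were floxed littermates without Cre, although their genotype label reads WT. Both groups received tamoxifen on 5 consecutive days. The cells were selected with beads against CD31 and later ICAM-2 and used at passages 1 to 3, so they had been cultured.

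The study describes its replicates in general as biologically independent. How many mice stand behind a library was not stated, and each p-value measures the spread between these libraries. The extraction text of the labels speaks of retinas while the tissue label gives lung. The transcripts of the lung epithelium, Sftpc among them, were present. The knockout columns are named for tamoxifen, and they were matched to the dKO samples by elimination. Sp1 was between 19.4 and 23.7 FPKM in CTR and between 8.42 and 12.1 in dKO, with no overlap (log2 fold change -0.95 ± 0.09 SE, adjusted p = 5.68e-06, limma). Sp3 was between 24.2 and 31.1 FPKM in CTR and between 22.5 and 26.9 in dKO, and it did not pass the test (log2 fold change -0.14 ± 0.07, adjusted p = 0.0902), so the group labels rest on Sp1. The recovered totals were 16549824 to 17467059 fragments in CTR and 15523054 to 17938286 in dKO, so that a single fragment on a 2 kb gene equalled 0.0279 to 0.0322 FPKM. The endothelial marker list was present in all libraries, with a summed level of 220.6 to 344.2 FPKM in CTR and 402.7 to 550.1 in dKO.

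Promoters are printed for a few genes that differ in what they hold: 2 of the motifs that bear on this experiment, the GC box bound by Sp factors and the PU.1 core, were searched in the 250 bases before and 50 bases after the annotated start (GRCm39). Spi1 is shown for its pair of PU.1 cores, Mertk for its GC boxes and Gpnmb because it had the largest rise of the 39 tested members and holds neither motif. Capitals mark the motifs. The windows are chr2:90926191-90926490 on the plus strand for Spi1, chr2:128540535-128540834 on the plus strand for Mertk and chr6:49013176-49013475 on the plus strand for Gpnmb.
Spi1: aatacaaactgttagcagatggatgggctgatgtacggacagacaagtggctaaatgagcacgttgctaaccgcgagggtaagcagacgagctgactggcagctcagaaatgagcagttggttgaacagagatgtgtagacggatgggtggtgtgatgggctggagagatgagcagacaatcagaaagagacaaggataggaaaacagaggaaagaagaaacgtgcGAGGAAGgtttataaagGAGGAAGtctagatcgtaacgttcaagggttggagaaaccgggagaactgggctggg
Mertk: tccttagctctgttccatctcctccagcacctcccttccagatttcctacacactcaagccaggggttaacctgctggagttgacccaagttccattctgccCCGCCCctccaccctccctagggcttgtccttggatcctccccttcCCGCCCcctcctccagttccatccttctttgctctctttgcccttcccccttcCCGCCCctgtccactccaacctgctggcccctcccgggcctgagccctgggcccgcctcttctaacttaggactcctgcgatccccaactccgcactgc
Gpnmb: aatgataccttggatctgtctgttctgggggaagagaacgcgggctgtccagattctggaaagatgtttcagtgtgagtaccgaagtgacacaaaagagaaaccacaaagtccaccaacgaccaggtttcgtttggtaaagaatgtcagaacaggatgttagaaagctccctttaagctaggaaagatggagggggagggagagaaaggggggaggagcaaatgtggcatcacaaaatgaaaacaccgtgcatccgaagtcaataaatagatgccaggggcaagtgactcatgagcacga

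A GC box (GGGCGG or its complement CCGCCC) was found in 13 of the 41 promoters (31.7%), against 37.7% of 27705 promoters of the table's genes and 56.3% of the 12375 that belonged to tested genes. A PU.1 core (GAGGAAG or its complement CTTCCTC) was found in 14 of the 41 (34.1%), against 13.2% of all promoters and 13.3% of those of tested genes. Both motifs were in 4 promoters and neither in 18. A match of either motif can overlap one of the other by at most 1 base at its end, and a match describes the sequence only. Tested members had a median log2 fold change of 1.07 with a GC box and 1.17 without, and 1.03 with a PU.1 core and 1.12 without.

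The comparison asked whether these genes differed between dKO and CTR MLECs. All 39 tested genes had higher mean levels in dKO, and 36 passed the test for a rise (adjusted p under 0.05, limma), where 20.4% of all 12467 genes tested did and 53.1% passed in either direction. None was lower, where 32.6% of all genes were. The members were chosen with earlier results of these data known, so these shares only describe them. Axl, Spp1 and Lilrb4a did not pass. A rise of over 1.5 on the log2 scale as well was found for 8, Gpnmb, Cd68, Clec4n, Gas6, Csf1r, Mpeg1, Pld4 and Adgre1, against 1.43% of all genes. In 32 of the 39 tested genes every dKO library lay above every CTR library, which held for 11.3% of all genes tested, and so it did in Aif1, which was not tested, 33 of 41 in all. Overlap remained for Axl, Lilrb4a, Csf2ra, Mertk, Spp1, Dock2, Csf1 and Cd86.

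**Figure D1:**
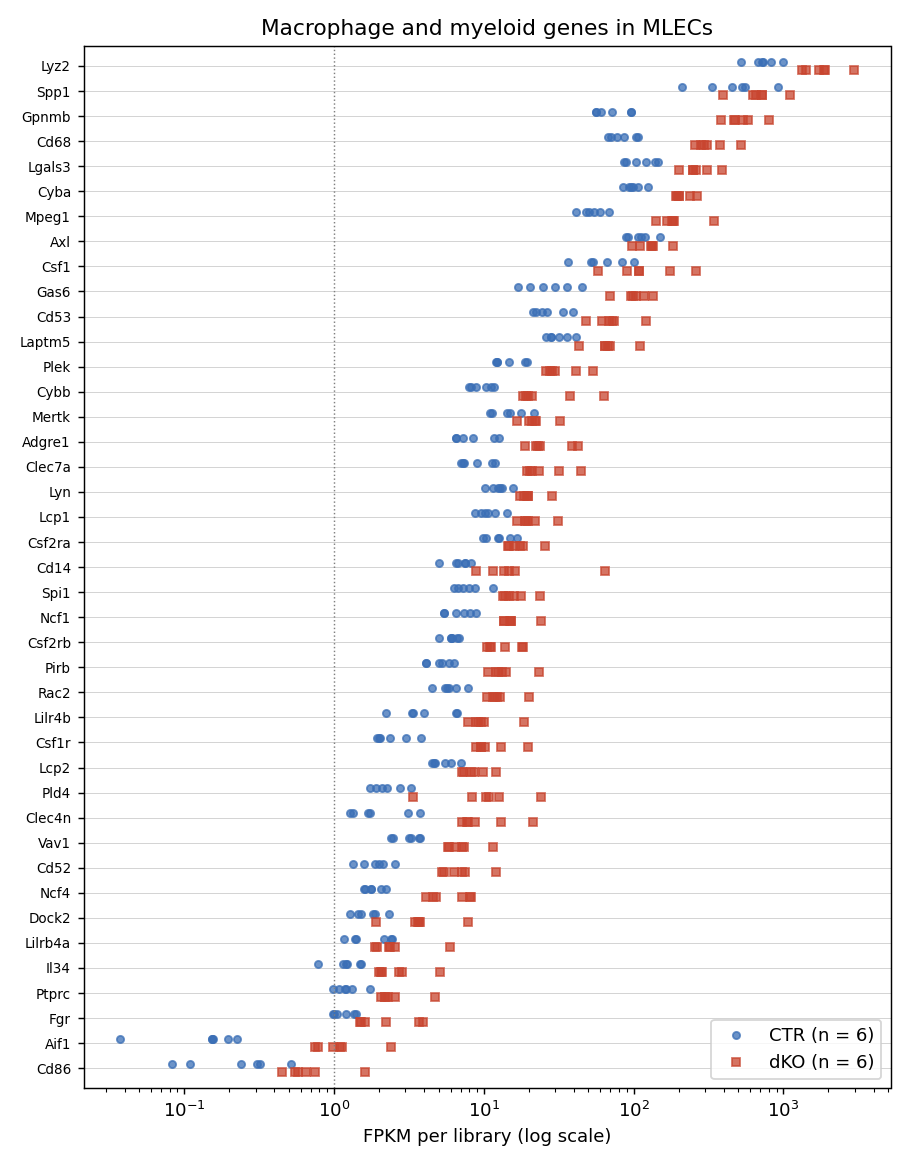
FPKM of the 41 genes in each CTR library (circles, n = 6) and each dKO library (squares, n = 6) on a log axis, ordered by the mean over all libraries; the dotted line marks 1 FPKM. The squares lie above the circles without overlap in 33 rows, from Lyz2 at the top to Aif1 near the bottom, and the groups overlap in the other 8, such as Spp1 and Axl.

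The rises were not of 1 size. The log2 fold changes ran from 0.23 to 2.88 with a median of 1.10, beside a median of -0.10 over all genes tested. Their SD was 0.53 over the members and also 0.53 over all genes tested, so a spread of this size was not particular to the members. The median SE of a single member's fold change was 0.18 (0.10 to 0.35). In 19 genes the log2 fold change lay between 0.9 and 1.5, in 12 it was under 0.9, and in 8 it was over 1.5. With 0.01 FPKM added in place of 1, these counts were 21, 7 and 11, and the SD over the members was 0.56. As ratios of the group means, the extremes were 1.18 for Axl and 7.43 for Gpnmb among tested genes, with a median of 2.35. In bulk RNA, more cells of a type and more RNA per cell cannot be told apart.

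The surface and effector markers were the group with the highest median, 1.75, and all 5 that were tested rose. Lyz2, the lysozyme of macrophages, monocytes and alveolar type 2 epithelial cells, was the most abundant gene of the set. Its levels were 523 FPKM at the lowest, 725 at the median and 999 at the highest in CTR, and 1336, 1801 and 2953 in dKO. The groups did not overlap (log2 fold change 1.30 ± 0.19, adjusted p = 0.000119). Cd68, a lysosomal glycoprotein of macrophages on chromosome 11, ran from 67.1 over a median of 81.5 to 107 FPKM in CTR and from 255 over 301 to 519 in dKO. The lowest dKO library was thus well above the highest CTR library (1.96 ± 0.17, adjusted p = 2.91e-06).

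Adgre1, which encodes the F4/80 antigen, was at 6.50, 7.85 and 12.6 FPKM (lowest, median and highest) in CTR and at 18.9, 23.4 and 42.4 in dKO, and rose by 1.55 ± 0.22. Mpeg1, a pore-forming protein of phagosomes, was at 41.6, 52.4 and 69.0 against 142, 182 and 344 (1.83 ± 0.18). Pld4, an endolysosomal exonuclease, spread widely in dKO, where it ran from 3.36 over 10.6 to 24.0 FPKM after 1.74 to 3.27 in CTR. Its lowest dKO library, replicate 5, was just above the highest CTR library.

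Aif1, which encodes the actin-binding protein IBA1, was under the filter and was not tested with the others. It was at 0.0375, 0.154 and 0.224 FPKM in CTR and at 0.745, 1.04 and 2.42 in dKO. Between 1 and 6 fragments were counted in a CTR library and between 20 and 65 in a dKO library, and the groups did not overlap.

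The growth factors and receptors changed by unequal amounts. Csf1, the main growth factor of macrophages and also a product of endothelial cells and fibroblasts, was at 36.4, 59.99 and 101 FPKM in CTR and at 58.0, 109 and 262 in dKO. The groups overlapped, with dKO replicates 1 and 5 the highest and dKO replicates 3 and 4 within the CTR range (0.93 ± 0.33, adjusted p = 0.0295). The call for Csf1 was lost in 6 of 20 alternatives, among them leaving out CTR replicate 2, 4 or 5 or dKO replicate 1 or 5, with adjusted p up to 0.0652. Il34, the other ligand of the same receptor, was at 0.780, 1.22 and 1.51 FPKM against 1.996, 2.41 and 5.10, without overlap (0.74 ± 0.16, adjusted p = 0.0021). Exons of Vac14 on the opposite strand, at a mean of 9.41 FPKM, cover 2.62% of the exon bases of Il34. The strand setting was not stated, so reads there cannot be assigned between them.

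Csf1r, the receptor of both, was at 1.94, 2.20 and 3.83 FPKM in CTR and at 8.84, 9.88 and 19.7 in dKO. The groups stood apart and the rise was 1.84 ± 0.18 (adjusted p = 7.08e-06), between 160 and 320 fragments per CTR library and 762 to 1693 per dKO library. Exons of Hmgxb3 on the opposite strand cover 19.8% of the exon bases of Csf1r, and since the strand setting was not stated, reads there cannot be assigned between them. Csf2ra, the ligand-binding chain of the GM-CSF receptor, had the smallest called rise, from 9.84, 12.5 and 16.6 FPKM to 14.4, 16.8 and 25.7 with overlap (0.45 ± 0.15, adjusted p = 0.0219), and without CTR replicate 2 its adjusted p was 0.0504. Csf2rb, the shared signalling chain, rose from 5.03, 6.06 and 6.79 to 10.4, 12.5 and 18.3 FPKM without overlap (1.03 ± 0.14). The 2 chains of this receptor thus had log2 fold changes of 0.45 and 1.03.

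Spi1 was at 6.35, 7.63 and 11.5 FPKM in CTR and at 13.5, 15.4 and 23.8 in dKO. All dKO libraries were above all CTR libraries (0.95 ± 0.15, adjusted p = 0.000205). Of the 12 other myeloid transcription factors tested, 6 rose, none fell and 6 did not pass, with a median log2 fold change of 0.49. The 2 most abundant of those did not pass. Cebpb, which acts in macrophages and many tissues, was at a mean of 18.7 FPKM in CTR and 19.6 in dKO (-0.19 ± 0.33, adjusted p = 0.649), but dKO replicate 4 stood at 52.4 FPKM, and without it the value was -0.52 and passed (adjusted p = 0.0308). Cebpa, its relative, was at 11.8 and 16.8 (0.47 ± 0.20, adjusted p = 0.0559).

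The leukocyte surface proteins rose in all 5 cases tested, between 0.67 and 1.47. Laptm5, a lysosomal membrane protein of blood cells, was at 26.2, 29.99 and 41.2 FPKM in CTR and at 43.2, 66.3 and 110 in dKO (1.07 ± 0.18), and the tetraspanin gene Cd53 was at 21.4, 25.5 and 39.4 against 48.3, 69.8 and 121 (1.35 ± 0.20). Cd52, a small glycoprotein of leukocytes, had the largest rise of the group, from 1.34, 1.93 and 2.56 to 5.24, 6.75 and 12.04 FPKM (1.47 ± 0.16). Ptprc, the pan-leukocyte phosphatase CD45, had the smallest, from 0.983, 1.198 and 1.75 to 2.06, 2.24 and 4.72 (0.67 ± 0.14). None of these 4 overlapped between groups. Cd14, the lipopolysaccharide co-receptor, was at 5.05, 7.09 and 8.16 FPKM in CTR and at 8.87, 14.2 and 64.0 in dKO. Its mean of 21.5 in dKO came largely from replicate 5, without which it was 13.0. Cd86, a costimulatory ligand, was under the filter, at 0.0825, 0.274 and 0.516 against 0.449, 0.615 and 1.62, with overlap.

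All 11 other leukocyte surface genes tested rose, with a median of 1.43. Ly86 (1.99) and Cd180 (1.43) were under 1 FPKM in all CTR libraries and were tested only because dKO was high. The filter thus fixed their direction, and the median is lower without these 2 genes. Itgb2, the common beta chain of the leukocyte integrins, went from a mean of 36.8 to 77.4 FPKM (1.05 ± 0.14) and Cd84, an adhesion receptor, from 7.76 to 23.0 (1.43 ± 0.18).

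Subunits of the phagocyte NADPH oxidase, the enzyme that makes superoxide, all rose, 5 of 5, by 1.00 to 1.38 with 1 FPKM added. As ratios of the means, they ran from 2.13 for Cyba to 3.35 for Ncf4. Cyba, the membrane subunit p22phox that many cell types make, was the most abundant, at 85.0, 97.4 and 124 FPKM in CTR and at 191, 200 and 264 in dKO, with the smallest error of the set (1.08 ± 0.10, adjusted p = 5.21e-06). Cybb, the catalytic subunit NOX2, was at 7.96, 9.64 and 11.6 against 18.3, 20.4 and 63.1 (1.38 ± 0.27). Its highest level was in dKO replicate 5, as for Cd14, and the second highest, 37.7, in replicate 3. Rac2, the GTPase of the complex in blood cells, rose by 1.00 ± 0.14, from 4.53, 5.80 and 7.81 to 10.5, 12.1 and 20.04 FPKM. The groups did not overlap for any of the 5. The cytosolic subunits Ncf1 (1.10 ± 0.15) and Ncf4 (1.30 ± 0.15) rose as well.

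Among 5 other oxidase genes tested, 3 rose and 2 did not pass. Rac1, the GTPase found in all cells, was at a mean of 68.2 FPKM in CTR and 70.6 in dKO (0.05 ± 0.06, adjusted p = 0.519), and Nox4, an oxidase of endothelial and connective tissue cells, at 18.7 and 19.8 (0.10 ± 0.17, adjusted p = 0.643).

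The TAM axis, in which GAS6 bridges dying cells to the receptor kinases AXL and MERTK, spread widely. Gas6 was at 17.02, 27.4 and 45.1 FPKM in CTR and at 69.6, 102 and 135 in dKO, without overlap (1.85 ± 0.22, adjusted p = 2.19e-05). Mertk was at 11.003, 14.6 and 21.6 against 16.6, 21.4 and 32.1 with overlap (0.54 ± 0.17, adjusted p = 0.017). Axl was at 88.9, 110 and 149 in CTR and at 98.1, 131 and 182 in dKO, and did not pass (0.23 ± 0.15, adjusted p = 0.21). The ligand and its receptors thus had log2 fold changes of 1.85, 0.54 and 0.23. Of 7 other uptake genes tested, 2 rose and 5 did not pass, where 20.4% of all genes tested rose. Pros1, another ligand of MERTK, rose from a mean of 94.9 to 123 FPKM (0.38 ± 0.14, adjusted p = 0.036). Mfge8, a bridging protein, rose from 74.0 to 104 (0.48 ± 0.10, adjusted p = 0.00124). The call for Pros1 was lost in 10 alternatives, 8 of them with 1 library left out.

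Among genes tied to lipid-laden and repair macrophages, Gpnmb stood above all others. This lysosomal glycoprotein gene (ENSMUSG00000029816, chr6:49013426-49047863 on the plus strand, GRCm39) was at 56.4, 66.2 and 96.4 FPKM in CTR and at 382, 510 and 800 in dKO. Its lowest dKO value was several times its highest CTR value (2.88 ± 0.19, adjusted p = 3.76e-07), with a ratio of means of 7.43. Lgals3, the galectin of macrophages and epithelium, was at 86.7, 112 and 145 against 200, 256 and 389, without overlap (1.26 ± 0.17). Spp1, osteopontin, was the second most abundant of the 41 and did not pass (0.58 ± 0.31, adjusted p = 0.136). It was at 209, 491 and 915 FPKM in CTR and at 396, 689 and 1109 in dKO. Its highest CTR library, replicate 1, was above 5 of the 6 dKO libraries, and without it Spp1 passed the test (0.78). At the other end of the alternatives, its log2 fold change was 0.36.

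All 9 other lysosomal and lipid-associated genes tested rose, with a median log2 fold change of 1.196. Apoe, the lipid carrier, went from a mean of 292 to 1029 FPKM (1.96 ± 0.40) and Ctsd, the protease cathepsin D, from 255 to 720 (1.49 ± 0.14).

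The signalling proteins rose in 4 of 4 cases, by the lowest median of the groups of more than 3 genes, 0.63. Lyn, a Src family kinase also made by endothelial cells, was at 10.2, 12.6 and 15.6 FPKM against 17.6, 19.6 and 28.6 (0.65 ± 0.12, adjusted p = 0.000494). Fgr, another kinase of the family, went from 0.980, 1.12 and 1.41 to 1.48, 1.91 and 3.95 FPKM (0.60 ± 0.18). With 1 FPKM added its fold change was the smallest of the 4, but its ratio of means, 2.07, was above those of Lyn and Lcp2, 1.63 and 1.64. Vav1, an exchange factor for Rac GTPases, had the largest (0.99 ± 0.15), from 2.41, 3.22 and 3.74 to 5.77, 6.78 and 11.5. No overlap was found for these or for the adaptor Lcp2 (0.62 ± 0.13). Of 12 other myeloid signalling genes tested, 9 rose and 3 did not pass; 1 of the 9, Fyb1, was under 1 FPKM in all CTR libraries and was tested only because dKO was high. The 2 most abundant were among those that did not, Skap2 at a mean of 12.3 and 11.1 FPKM (-0.13 ± 0.07, adjusted p = 0.137) and Pik3ap1 at 10.5 and 10.6 (0.01 ± 0.25, adjusted p = 0.971).

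Of the actin and exchange factor genes, Plek, pleckstrin, rose by 1.14 ± 0.18, from 12.04, 13.5 and 19.5 to 26.0, 29.3 and 53.7 FPKM. Lcp1, L-plastin, rose by 0.89 ± 0.14. Dock2, the Rac exchange factor of haematopoietic cells, rose by 0.83 ± 0.20 (adjusted p = 0.00423), from 1.27, 1.67 and 2.32 to 1.90, 3.65 and 7.84, and overlapped since dKO replicate 5 was at 1.90. As ratios of the means these 3 were at 2.32, 1.95 and 2.36, so their order depends on the FPKM added. Of 11 other leukocyte actin genes tested, 10 rose, with a median of 1.05. Arhgdib went from a mean of 6.49 to 20.5 FPKM without overlap (1.53 ± 0.14), and Wipf1, a partner of the actin regulator WASP found in many cells, was at a mean of 13.1 FPKM in CTR and 14.4 in dKO and did not pass (0.12 ± 0.07, adjusted p = 0.155).

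Lectins and paired receptors held a large rise and a small difference. Clec4n, the receptor dectin-2, was at 1.28, 1.72 and 3.75 FPKM in CTR and at 7.10, 8.26 and 21.3 in dKO (1.87 ± 0.26, adjusted p = 8.11e-05), with replicate 5 the highest. Clec7a, dectin-1, was at 7.02, 8.19 and 11.9 against 19.4, 22.1 and 44.9 (1.44 ± 0.20), and Pirb, an inhibitory receptor, rose by 1.29 ± 0.16. Of 9 other genes of this kind tested, 8 rose. Sirpa, an inhibitory receptor that binds CD47, went from a mean of 27.4 to 47.4 FPKM (0.78 ± 0.17) and Clec10a, a galactose lectin, from 3.49 to 26.6 (2.40 ± 0.47).

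The neighbours Lilr4b and Lilrb4a, which encode related paired receptors on chromosome 10, differed although they are near copies. Lilr4b was at 2.22, 3.66 and 6.62 FPKM in CTR and at 7.88, 9.37 and 18.5 in dKO without overlap (1.15 ± 0.23, adjusted p = 0.00116). Lilrb4a was at 1.16, 1.78 and 2.43 against 1.88, 2.34 and 5.98 with overlap and did not pass (0.39 ± 0.21, adjusted p = 0.126). Over the alternatives, the log2 fold change of Lilrb4a ran from 0.20 to 0.57. The difference between the fold changes of Lilr4b and Lilrb4a was not tested. Their transcripts were 96.4% identical over 1464 aligned bases, and a further gene model, Gm49339, was identical to 1441 bases of Lilrb4a. How reads shared by such copies were counted is not settled by the sources, so both values are uncertain. The promoters, at chr10:51356478-51356777 for Lilr4b and chr10:51366777-51367076 for Lilrb4a, both on the plus strand of GRCm39, shared 291 of 300 bases (97%) in an alignment, and are printed to show how alike they are. Capitals mark bases that differ or have no partner, and neither promoter held a GC box or a PU.1 core.
Lilr4b: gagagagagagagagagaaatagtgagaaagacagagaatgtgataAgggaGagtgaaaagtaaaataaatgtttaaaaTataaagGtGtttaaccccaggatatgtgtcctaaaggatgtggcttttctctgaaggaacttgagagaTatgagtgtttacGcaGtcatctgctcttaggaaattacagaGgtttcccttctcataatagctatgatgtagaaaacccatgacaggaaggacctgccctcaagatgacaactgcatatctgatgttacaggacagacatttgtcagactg
Lilrb4a: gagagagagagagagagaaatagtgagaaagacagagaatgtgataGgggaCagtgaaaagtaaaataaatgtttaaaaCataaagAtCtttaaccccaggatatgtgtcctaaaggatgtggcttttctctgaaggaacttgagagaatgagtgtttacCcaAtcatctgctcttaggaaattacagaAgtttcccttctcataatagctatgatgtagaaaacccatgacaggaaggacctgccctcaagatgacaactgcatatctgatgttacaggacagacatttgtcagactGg

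Pirb likewise had transcripts of at least 95% identity over at least 30% of its length in the pseudogene Gm15931, which at a mean of 2.60 FPKM was the most abundant of them in the table, and in Pira1, Pira2, Pira12, Pira13 and Lilra6, Csf2rb had one in Csf2rb2 and Lyz2 one in Lyz1, so their values are uncertain to the extent that reads were lost or shared. Lyz1 was at a mean of 0.240 FPKM. Csf2rb2 rose from a mean of 1.22 to 5.01 FPKM (1.41 ± 0.15, adjusted p = 1.19e-05). Il3ra, the receptor chain for interleukin 3 and the only other tested gene of the growth factor list, fell by 0.35 on the log2 scale, from a mean of 11.3 to 8.72 FPKM (adjusted p = 0.0196), and did not pass with median-of-ratios scaling (-0.26).

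A greater share of macrophage RNA of the same mix would alone raise all genes made only by such cells by a like factor. The size of each rise was therefore set against that of Lyz2 within each library. Lyz2 is itself not made only by macrophages. The interstitial and alveolar macrophage marker lists, given below, did not move alike, and the part of a change in mix was not tested. The difference between a gene's log2 fold change and that of Lyz2 was tested for the other 38 tested genes. Of all genes, 0.89% were higher and 94.3% lower relative to Lyz2, which itself rose by 1.30. Of the 38, 6 were higher, 10 were lower and 22 did not pass. Adding 1 FPKM before the logarithm shrinks the fold change of genes near 1 FPKM, so the test was repeated with 0.1, with 0.01 and on recovered fragments. In all 4 fits 6 genes were higher and 7 lower, 19 did not pass in any, and the other 6 changed between fits. All these tests share the error of the Lyz2 values.

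The 6 that were higher relative to Lyz2 were Gpnmb (by 1.58 ± 0.25, adjusted p = 2.76e-09), Cd68 (0.66), Clec4n (0.57), Gas6 (0.55), Csf1r (0.54) and Mpeg1 (0.53). Gpnmb was at 7.87% of the Lyz2 level at the lowest, 9.68% at the median and 11.6% at the highest in CTR, and at 25.6%, 27.1% and 40.5% in dKO. Cd68 was at 9.95%, 11.2% and 13.5% against 15.2%, 17.8% and 23.0%. For both, the lowest dKO library was above the highest CTR library.

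The calls other than those of Gpnmb and Cd68 were less firm: without dKO replicate 5 Clec4n was at 0.30 and Csf1r at 0.43, and neither passed. Without CTR replicate 1, 2 or 3, between 2 and 3 genes were higher in place of 6. As a share of Lyz2 in FPKM, the groups did not overlap for the tested members Gpnmb, Cd68, Clec4n, Csf1r and Mpeg1. These lay higher in dKO, as did 0.858% of all genes tested. Aif1, which was not tested, lay higher without overlap as well.

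The 7 that were lower relative to Lyz2 in all 4 fits were Axl (by -1.07, adjusted p = 4.1e-05), Lilrb4a (-0.91), Csf2ra (-0.85), Mertk (-0.76), Spp1 (-0.72), Lcp2 (-0.68) and Lyn (-0.65). Axl was at 9.14%, 16.0% and 21.5% of the Lyz2 level in CTR and at 3.71%, 8.19% and 10.5% in dKO, so the groups overlapped. Csf2ra was at 1.37%, 1.67% and 2.41% against 0.830%, 0.928% and 1.31%, and Lyn at 1.54%, 1.73% and 1.95% against 0.968%, 1.09% and 1.31%. These were the only members whose share of Lyz2 was lower in all dKO libraries, where 74.9% of all genes were. Axl, Mertk, Spp1 and Lyn are among the 12 genes that other lung cells also make, and Csf2ra, which alveolar type 2 cells make, is another. Lilrb4a and Lcp2 are known mostly from blood-derived cells. Of the 6 that were higher, Gpnmb and Gas6 are among the 12 as well, and the other 4 are known mostly from blood-derived cells. Ptprc, Fgr and Il34 were lower with 1 FPKM added but not with 0.1, and so were not read as lower.

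The counts also depended on the reference gene. With Cd68 in place of Lyz2, 1 member was higher and 31 were lower. With Csf1r, 1 was higher and 26 lower, and with Ptprc, 21 were higher and none lower.

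**Figure D2:**
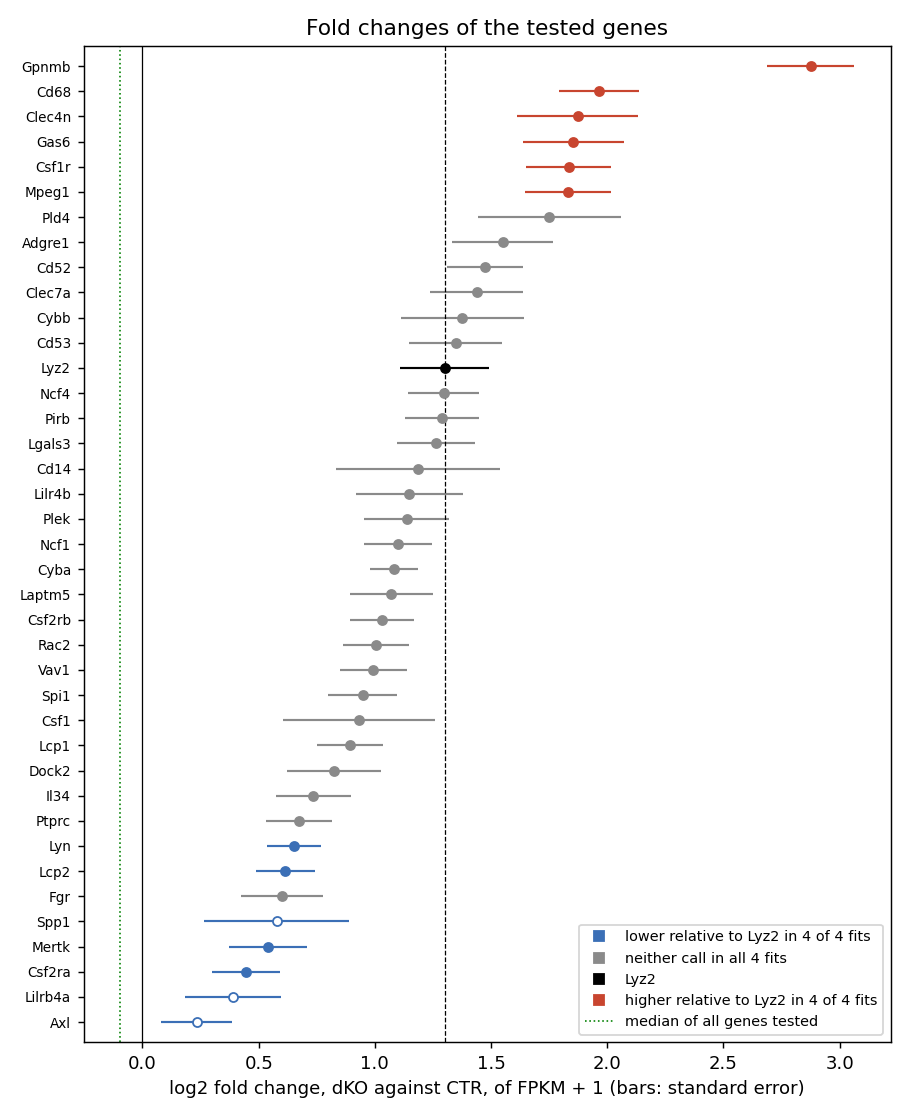
Log2 fold change (dKO against CTR, of FPKM + 1) of the 39 tested genes with its standard error; filled points passed the test at an adjusted p under 0.05 and open points did not. Colour gives the call relative to Lyz2, whose value of 1.30 is the dashed line; Gpnmb stands at 2.88, Axl at 0.23, and the dotted line is the median of all genes tested, -0.10.

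By breadth of expression, the 12 genes also made by other lung cells had a median log2 fold change of 0.83 (0.23 to 2.88, 10 of 12 higher). The 27 tested genes known mostly from blood-derived cells had a median of 1.15 (0.39 to 1.96, 26 of 27 higher). Within the latter, Cd68 at 1.96 and Lcp2 at 0.62 both rose without overlap.

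The dKO libraries were not alike. Replicate 3 was the highest dKO library for 31 of the 41 genes, whereas it was the highest for 15.9% of all genes tested and 27.7% of the genes that rose. Replicate 5 was the highest for 7, among them Cd14, Cybb, Clec4n and Il34. It was the highest for 13.1% of all genes tested and 15.5% of those that rose. The same library was the lowest for 14, against 15.8% and 21.6%. Without replicate 3, 36 members were still higher, and without replicate 5, 35 were. The Lyz2 mean in dKO was 1868 FPKM with all libraries and 1651 without replicate 3, and that of Gpnmb was 541 and 490.

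Replicate 5 set high and low values side by side. There Cd14 was 64.0 FPKM, Cybb 63.1, Clec4n 21.3 and Il34 5.10, each the highest of all 12 libraries. Pld4 was 3.36, Dock2 1.90, Spp1 396 and Gpnmb 382 in the same library, each the lowest of the 6 dKO libraries. Without it, the dKO mean of Cybb went from 29.8 to 23.2 and that of Pld4 from 11.6 to 13.3. Among CTR libraries, replicate 4 was the highest for 25 of the 41 members, and for 25.8% of all genes tested and 41.3% of those that rose. Replicate 5 was the highest for 12, against 10.8% and 13.5%. Replicate 6 was the lowest for 17, against 24.8% and 36.4%, and replicate 1 for 12, against 22.8% and 23.4%.

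**Figure D3:**
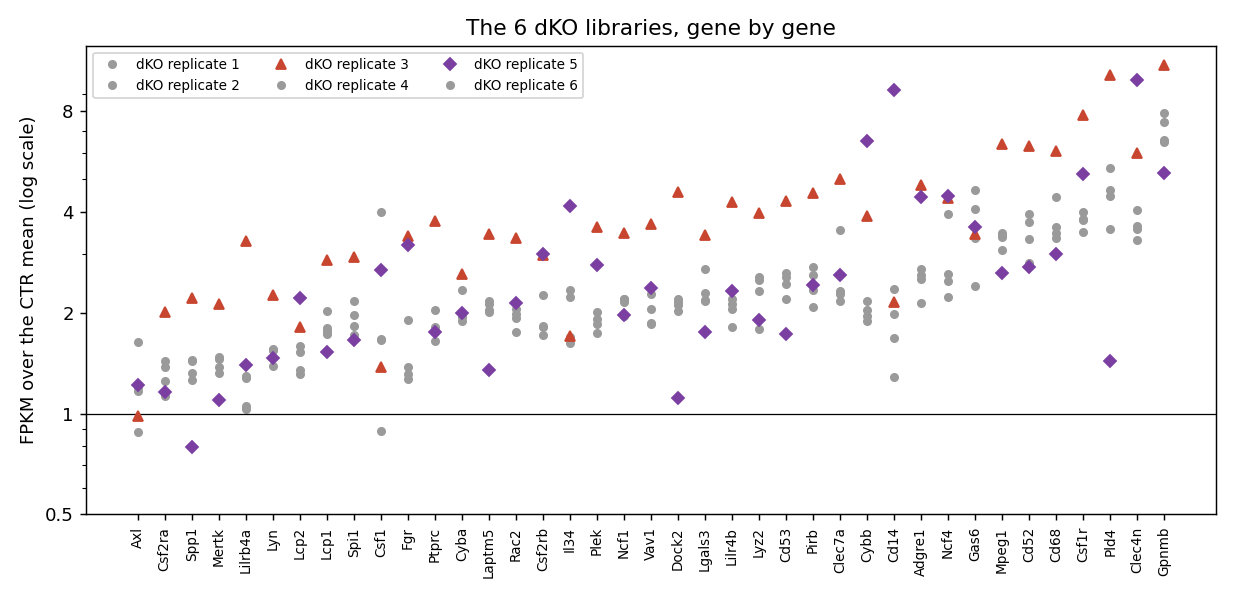
FPKM of each dKO library divided by the CTR mean, on a log axis, for the 39 tested genes in order of the mean ratio; triangles are replicate 3, diamonds replicate 5 and grey circles the other 4 libraries. Triangles are the topmost points in most columns, while diamonds are topmost for Cd14, Cybb, Clec4n and Il34 and lowest for Pld4 and Dock2.

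Markers of other cell types moved as well. Of all genes tested, 20.4% were higher and 32.6% lower, so list counts near these shares are not particular to a list. Of 9 tested interstitial macrophage markers, 7 rose (median 1.58), and the summed level of the list was 210.2 to 333.3 FPKM in CTR and 836.2 to 1932 in dKO. C1qa, a chain of complement C1q, went from a mean of 30.3 to 398 FPKM (3.66 ± 0.23) and C1qb from 30.04 to 321 (3.35 ± 0.26). The alveolar macrophage list did not rise as a whole. Of 8 tested, 2 were higher, 3 lower and 3 not called, which is near the shares of all genes tested. Its sums overlapped, at 1038 to 1758 FPKM in CTR and 510.7 to 1814 in dKO. Chil3, a chitinase-like protein of these cells, was at a mean of 1107 and 1061 FPKM (-0.14 ± 0.26, adjusted p = 0.66), and Marco, a scavenger receptor, fell by 1.91 on the log2 scale, from 119 to 43.1 (adjusted p = 0.00404), with overlap.

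**Figure D4:**
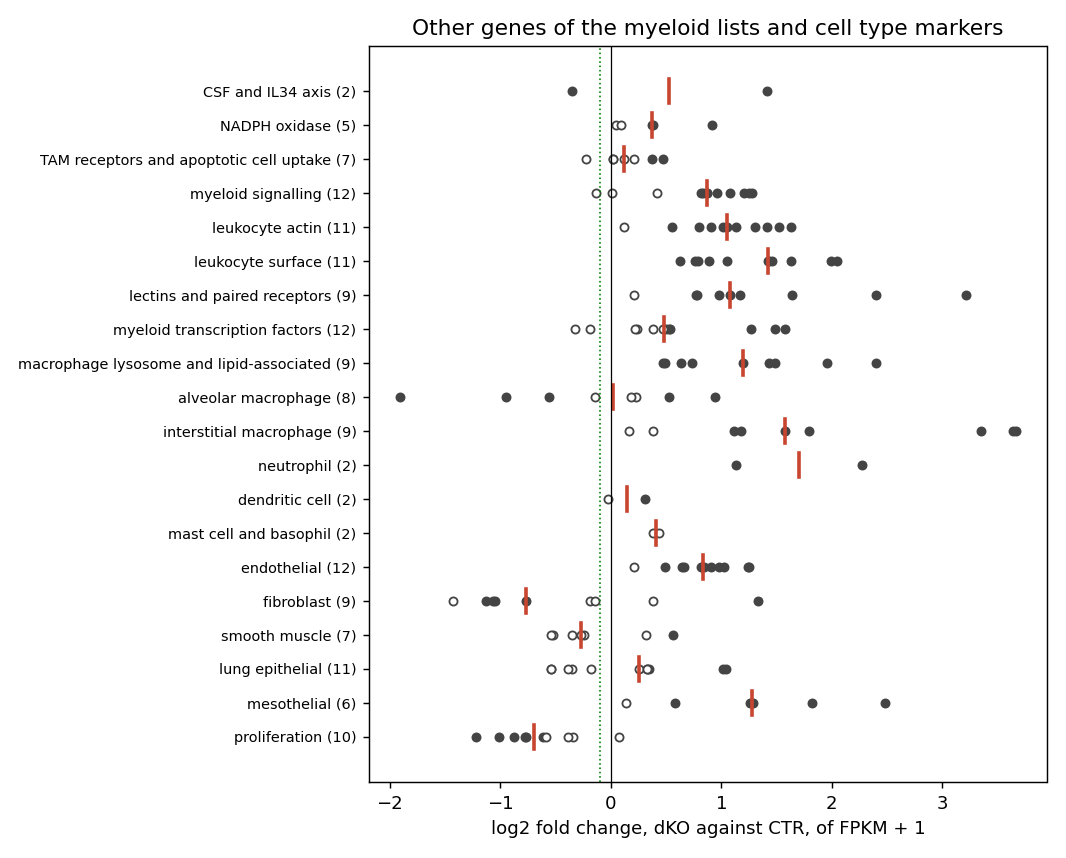
Log2 fold changes (dKO against CTR, of FPKM + 1) of tested genes in the other myeloid lists, without the members described, and in the cell type marker lists; the number tested is in brackets, filled points passed the test, open points did not, and the red bar is the list's median. Leukocyte surface genes lie at a median of 1.43, which includes Ly86 and Cd180, tested only because dKO was high, and is lower without them. Interstitial macrophage markers lie at 1.58 and alveolar macrophage markers on both sides of 0, and the dotted line is the median of all genes tested, -0.10.

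T cell markers summed to 2.005 to 3.21 FPKM in CTR and 6.74 to 9.98 in dKO, with 1 of 10 tested (Il7r, higher), and NK cell markers to at most 1.19 with none tested. B cell markers summed to at most 3.28 FPKM, and the only one tested, Cd22, did not pass. Some of their defining genes were not in the table at all, 1 of 10 for T cells, 2 of 8 for B cells and 2 of 8 for NK cells. The neutrophil list summed to 19.9 to 117 FPKM in CTR and 112 to 317 in dKO, and its 2 tested genes both rose, Mmp8 from a mean of 51.1 to 223 (2.27 ± 0.39) and S100a8 from 2.12 to 5.50 (1.13 ± 0.26). Dendritic cell markers summed to at most 4.25 FPKM, with Clec9a higher (0.31 ± 0.08, adjusted p = 0.0042) and Zbtb46 not called (-0.02 ± 0.08). The mast cell genes Gata2 (0.38 ± 0.16, adjusted p = 0.0618) and Cpa3 (0.43 ± 0.27, adjusted p = 0.191) did not pass. Pf4, the only tested platelet marker, rose as well (2.35 ± 0.33).

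Of 12 endothelial markers 11 rose, with a median of 0.83, Cdh5 from a mean of 88.9 to 140 FPKM (0.66 ± 0.12) and Cldn5 from 55.6 to 97.9 (0.83 ± 0.16). Mesothelial markers rose in 5 of 6 cases (median 1.28), Upk1b by 2.48 ± 0.23 and Msln by 1.29 ± 0.27. Fibroblast markers summed to 2203 to 2808 FPKM in CTR and 876.5 to 1753 in dKO. Of 9 tested, 4 were lower and 1 was higher, where 32.6% and 20.4% of all genes tested were. Col1a1 went from a mean of 1173 to 572 (-1.07 ± 0.14) and Col1a2 from 598 to 358 (-0.77 ± 0.13). Lung epithelial sums overlapped, at 154.5 to 603.6 against 277.1 to 451.3 FPKM, and Sftpc, made by the alveolar type 2 cells that also make Lyz2, was at a mean of 180 and 192 (0.32 ± 0.42, adjusted p = 0.53). Of 11 epithelial markers tested, 3 rose and none fell, where 20.4% and 32.6% of all genes tested did. Krt8, a keratin of simple epithelia and mesothelium, rose from a mean of 27.8 to 62.0 FPKM (1.02 ± 0.25, adjusted p = 0.00492). Of 7 smooth muscle markers 1 rose and 6 did not pass, the actin gene Acta2 (-0.52 ± 0.26, adjusted p = 0.102) and the desmin gene Des (-0.24 ± 0.14, adjusted p = 0.16) among the latter. Of the proliferation genes, 6 of 10 were lower and 4 did not pass, where 32.6% of all genes tested were lower. Top2a, a topoisomerase of dividing cells, fell by 0.87 (adjusted p = 0.00891), and Pcna, the replication clamp, did not pass (0.07 ± 0.17, adjusted p = 0.724). The part of these shifts in the members' rises was not tested.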

How the data were processed

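RNA of MLECs was sequenced in 6 CTR and 6 dKO libraries. The study's methods give FastQC, Trimmomatic, STAR on mm39 and sambamba for uniquely aligned reads, whereas the submitters' processing notes list Bowtie2 2.2.3, HISAT2 2.1.0, TopHat2 and DESeq2. The counter, annotation and strand setting are not given in the sources used here. The authors deposited FPKM values, which are not counts. Whole fragments were recovered for 100% of genes (tolerance 0.01) and used for depth and 1 alternative, and intervals from them would cover counting error only.

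Symbols, positions and sequences came from GENCODE on GRCm39 (27706 of 28689 identifiers matched, 96.6%); Lilr4b was taken as the annotated neighbour of Lilrb4a. limma 3.58.1 (R 4.3.3; lmFit, eBayes with trend) was fitted on log2(FPKM + 1) of the 12467 genes at 1 FPKM or more in at least 6 libraries, with Benjamini-Hochberg adjustment over all of them. The second test subtracted each library's Lyz2 value first. The study's DESeq2 needs counts and was not used. Fold changes on this scale understate those of low genes. Copies were sought with BLAST 2.17.0 at 95% identity and promoters aligned with Biopython 1.88. Python 3.11.15, NumPy 2.4.6, pandas 2.3.3 and Matplotlib 3.10.9 were used. The fits were tested on simulated data.

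All 41 genes were accounted for, with full values for the most abundant and the largest and smallest change of each role group, and the 2 most abundant other genes of each list where tested. Some near copies and overlapping genes were named as well, as were genes tested only because dKO was high. The members and lists were chosen with earlier results of these data known. Alternatives covered the pseudocount, the filter, the scaling, recovered fragments, a replicate block, the reference gene and each library left out.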

Additional observations from a re-analysis of the deposited data

Results flagged for a closer look

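In 20 of 86 groups of 6 values, the highest library lay far from the other 5, by a gap beyond the limit of Dixon's test, where chance gives about 4.3 groups (1 in 20). In 18 of them dKO replicate 3 was the library. Among macrophage markers and receptors, replicate 3 had these FPKM values, with the range of the other 5 dKO libraries in brackets: Lyz2 2953 (1336 to 1901), Mpeg1 344 (142 to 187), Aif1 2.42 (0.745 to 1.14), Csf2ra 25.7 (14.4 to 18.4) and Mertk 32.1 (16.6 to 22.3). Among surface proteins and paired receptors, it had Cd53 121 (48.3 to 73.6), Cd52 12.04 (5.24 to 7.54), Ptprc 4.72 (2.06 to 2.56), Cd86 1.62 (0.449 to 0.749), Pirb 23.3 (10.6 to 14.0), Lilr4b 18.5 (7.88 to 10.1) and Lilrb4a 5.98 (1.88 to 2.55). Among oxidase, signalling and actin genes, it had Ncf1 24.1 (13.5 to 15.2), Rac2 20.04 (10.5 to 12.8), Lyn 28.6 (17.6 to 19.7), Vav1 11.5 (5.77 to 7.43), Lcp1 31.3 (16.6 to 22.0) and Dock2 7.84 (1.90 to 3.77). In dKO replicate 5, Cd14 was 64.0 FPKM, against 8.87 to 16.2 in the other 5, and Il34 was 5.10, against 1.996 to 2.86. Such libraries were high and never low, and none of the CTR groups held one.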

How the results depend on the processing

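Direction and call were the same in every alternative run (20, or 19 for 7 low members that a stricter filter dropped) for 35 of the 39 tested members; Csf1 lost its call in 6 and Csf2ra in 1, and Spp1 and Lilrb4a gained one in 1 each. The number of members higher was 34 to 37 with 1 library left out and 30 to 37 otherwise (36 as reported), and with a rise over 1.5 it was 7 to 10 and 7 to 11 (8 as reported). Relative to Lyz2, 8 of 16 called members kept their call in all alternatives that kept Lyz2 as the reference. The number higher was 2 to 7 with 1 library left out (3 without CTR replicate 1 or 2, and 2 without CTR replicate 3), 1 against Cd68, 1 against Csf1r and 21 against Ptprc. The number lower was 9 to 12 with 1 library left out, 6 with at least 5 FPKM required, 31 against Cd68, 26 against Csf1r and 0 against Ptprc. The replicate numbers were not used as pairs. Deviations from the group mean in libraries of the same number had correlations of 0.44, 0.16, -0.04, 0.57, 0.01 and -0.11. These values do not settle whether samples were paired. With a replicate block 37 members were higher, Lilrb4a included. Sp1 was -0.98 to -0.89 with 1 library left out. Sp3 passed after rescaling to TPM (-0.20) and without CTR replicate 6 (-0.18), with -0.18 to -0.11 over the libraries left out. Genes near 0 changed sign: Rac1 (-0.0025) and Pik3ap1 (-0.0350) in TPM, Zbtb46 (0.0318) with median-of-ratios scaling, and, over the libraries left out, Nox4 (-0.0132 to 0.195), Pcna (-0.0158 to 0.213), Chil3 (-0.295 to 0.0945), Zbtb46 (-0.0635 to 0.0116) and Pik3ap1 (-0.14 to 0.13). The cause was not tested. Of the other named genes that did not pass, Cebpa and Cd22 passed in 5 alternatives each, Gata2 and Acta2 in 3 each, and Wipf1, Cebpb and Cpa3 in 1 each. With fragment numbers of 1 to 6 in CTR, the level of Aif1 there is imprecise.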
